A study of Homo sapiens with 16 samples.

Results

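Polycomb repressive complex 2 (PRC2) was followed in SAOS cells through the transcripts of 8 of its genes, taken from 19775 genes that the arrays measured. The members were EZH2 and EZH1, EED, SUZ12, RBBP7, PHF19, MTF2 and JARID2, and every probe set whose only gene symbol in the platform annotation was one of these was read, 23 of the 54613 probe sets tested. A probe set is a group of short probes on the array that together report 1 transcript or a group of related ones. EZH1 and MTF2 had 5 probe sets each, SUZ12, PHF19 and JARID2 had 3, EED had 2, and EZH2 and RBBP7 had 1. Another probe set annotated to both SUZ12 and its pseudogene SUZ12P1 was left out by that rule. All 8 genes are described below, each by its brightest probe set first.

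SAOS cells are an established line from a human osteosarcoma, and they make no working RB, the product of the retinoblastoma gene. Gene expression was measured on 16 arrays, 4 for each of 4 groups. The groups were control cells without transfection, cells transiently transfected with human RB, cells transiently transfected with mouse SMYD2, and cells that received both (RB plus SMYD2). SMYD2 is a lysine methyltransferase that can methylate RB. The labels name no cells given an empty vector, so RB against control also holds whatever transfection itself does, whereas RB plus SMYD2 against SMYD2 compares groups that were both transfected. They give neither the share of cells that took up a construct nor the source of the replicates. The p-values thus cover the spread among these arrays, part or all of which could be technical. RNA came from whole cultures, and a change in fewer cells cannot be told apart from a smaller change in all of them.

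PRC2 places methyl groups on lysine residues of the tail of histone H3 and so keeps developmental genes silent. EZH2, or its close relative EZH1, carries the catalytic SET domain, but neither is active without EED and SUZ12. EZH2 is typical of dividing cells and has long been described as a gene under the control of RB and the E2F transcription factors, while EZH1 is also made in cells that have stopped dividing. RBBP7 binds histones, and the accessory subunits PHF19, MTF2 and JARID2 help to bring the complex to its targets.

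Because RB acts through E2F factors, the promoters are shown first. RefSeq (GRCh38.p14) gave 12 windows for the 8 genes, each from 250 bases before to 50 bases after an annotated transcription start. They were searched on both strands for the E2F words TTTGGCGC, TTTCCCGC, TTTGCCGC and TTTCGCGC and for the CHR word TTTGAA, an element of genes switched on late in the cell cycle. Of all 35116 promoter windows, 1164 (3.31%) held an E2F word and 15.2% the CHR word. Counted by gene, 3.99% of 27305 genes held an E2F word and 18.2% the CHR word in at least 1 window. Among the members, EZH2, EZH1, SUZ12, PHF19 and MTF2 held an E2F word, each in 1 window, and SUZ12 also the CHR word, which does not overlap its E2F word. No E2F or CHR word lay in the windows of EED, RBBP7 or JARID2, which says only that these letters are not there. A match is a description of the sequence and not a binding site.

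The EZH2 window is given at length because EZH2 is the catalytic member whose level moved. It runs from 250 bases before to 30 bases after the start, chr7:148884262-148884541 on the minus strand, with the E2F word in capitals beginning 2 bases into the transcript.
EZH2: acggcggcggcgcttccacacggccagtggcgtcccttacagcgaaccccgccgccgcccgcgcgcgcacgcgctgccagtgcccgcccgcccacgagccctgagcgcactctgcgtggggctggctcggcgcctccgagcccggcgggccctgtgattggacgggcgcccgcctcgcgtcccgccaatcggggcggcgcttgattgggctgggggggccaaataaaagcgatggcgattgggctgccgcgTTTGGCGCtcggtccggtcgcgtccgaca

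The other 4 matches are given with up to 30 bases on each side, so that their surroundings can be compared with that of EZH2. Capitals again mark the E2F word, as it reads on the strand of the gene. PHF19, which fell in the same 3 comparisons as EZH2, lies at chr9:120877303-120877370 on the minus strand, and its word begins 152 bases before the second annotated start. SUZ12 lies at chr17:31936788-31936855 on the plus strand, with the word 189 bases before the start and the CHR word on the other strand 173 bases before it. MTF2 lies at chr1:93079258-93079312 on the plus strand, with the word 6 bases into the transcript. EZH1, whose differences did not pass, lies at chr17:42745118-42745185 on the minus strand, with the word 115 bases before the start.
PHF19: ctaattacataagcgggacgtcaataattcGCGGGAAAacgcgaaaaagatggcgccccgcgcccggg
SUZ12: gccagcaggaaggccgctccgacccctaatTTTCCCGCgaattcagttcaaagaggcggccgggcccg
MTF2: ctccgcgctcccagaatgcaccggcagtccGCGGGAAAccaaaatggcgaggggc
EZH1: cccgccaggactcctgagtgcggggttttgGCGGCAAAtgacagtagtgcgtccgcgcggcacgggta

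**Figure D1:**
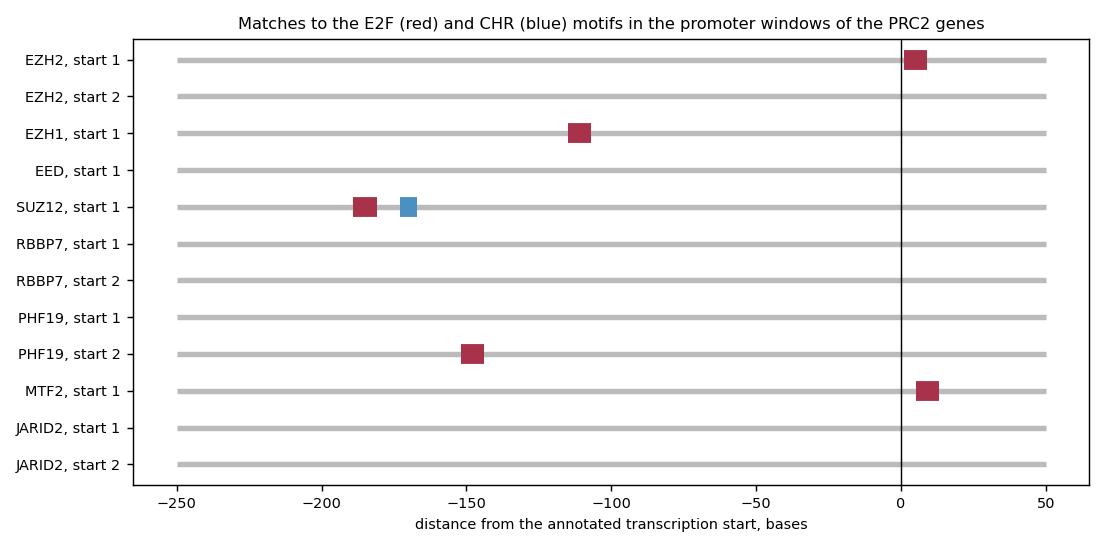
Positions of the E2F words (red) and the CHR word (blue) in the 12 promoter windows of the 8 PRC2 genes, in bases from the annotated transcription start (0); each grey bar is 1 window. The words of EZH2 and MTF2 lie just after the start and those of EZH1, SUZ12 and PHF19 before it, and 7 windows have no match.

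The arrays were alike in overall signal, with medians of 5.58 to 5.64 on the log2 scale, the unit of all levels here. The brighter RB1 probe set read 6.48 ± 0.32 (SD, n = 4) in control and 6.85 ± 0.17 with SMYD2, against 7.70 ± 0.34 with RB and 8.67 ± 0.90 with RB plus SMYD2. The other RB1 probe set had group means of 3.44 to 3.51 and did not rise with RB. The brightest human SMYD2 probe set had group means of 10.05 to 10.28; it was designed on the human gene and is no check of a mouse construct. Of 9 osteoblast markers, 8 were measured, and RUNX2, COL1A1, ALPL and IBSP had control means of 11.99 to 13.53. SP7, COL1A2 and SPARC had control means of 9.88 to 11.01. SPP1 was lower, at 5.31 in control, within the range of the markers of other cell types given next. Markers of blood, endothelial and muscle cells lay between 3.74 and 6.60 in every group mean; of these the endothelial marker TEK was 0.30 higher in RB plus SMYD2 than in SMYD2 (limma, adjusted p = 0.0423; 5.58 against 5.28), and its second probe set went the other way. Of 5 epithelial markers EPCAM stood out at 9.45 in control. The ratio of 3′ to 5′ ACTB signal grows as RNA breaks down. It was 3.53 on the log2 scale on SMYD2 array 1 and 2.46 on control array 1, against 0.54 to 1.63 on the other 14. The same ratio for GAPDH was 0.16 on SMYD2 array 1 and 0.06 on control array 1, against -0.01 to 0.10 on the other 14.

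EZH2 and PHF19 transcripts were lower in cells given RB, and no difference of EZH1 passed the test. In RB against control, 4 of the 23 PRC2 probe sets fell, the single one of EZH2 and all 3 of PHF19, and 0 rose (limma, adjusted p under 0.05 over all probe sets). Of all probe sets tested, 0.665% fell in that comparison. By the brightest probe set, 2 of the 8 genes fell, beside 1.27% of all genes. The median difference over the 8 genes was -0.29, beside 0.01 over all genes. The comparison of RB plus SMYD2 with SMYD2 gave 4 probe sets and again 2 genes that fell and 0 that rose, beside 2.13% of all probe sets and 3.49% of all genes, and the median over the 8 genes was -0.32. In RB plus SMYD2 against control, 5 probe sets and 3 genes fell and 0 rose, beside 2.12% and 3.43%, and the gene added to EZH2 and PHF19 was SUZ12. These 3 comparisons share arrays, so their counts are not independent.

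**Figure D2:**
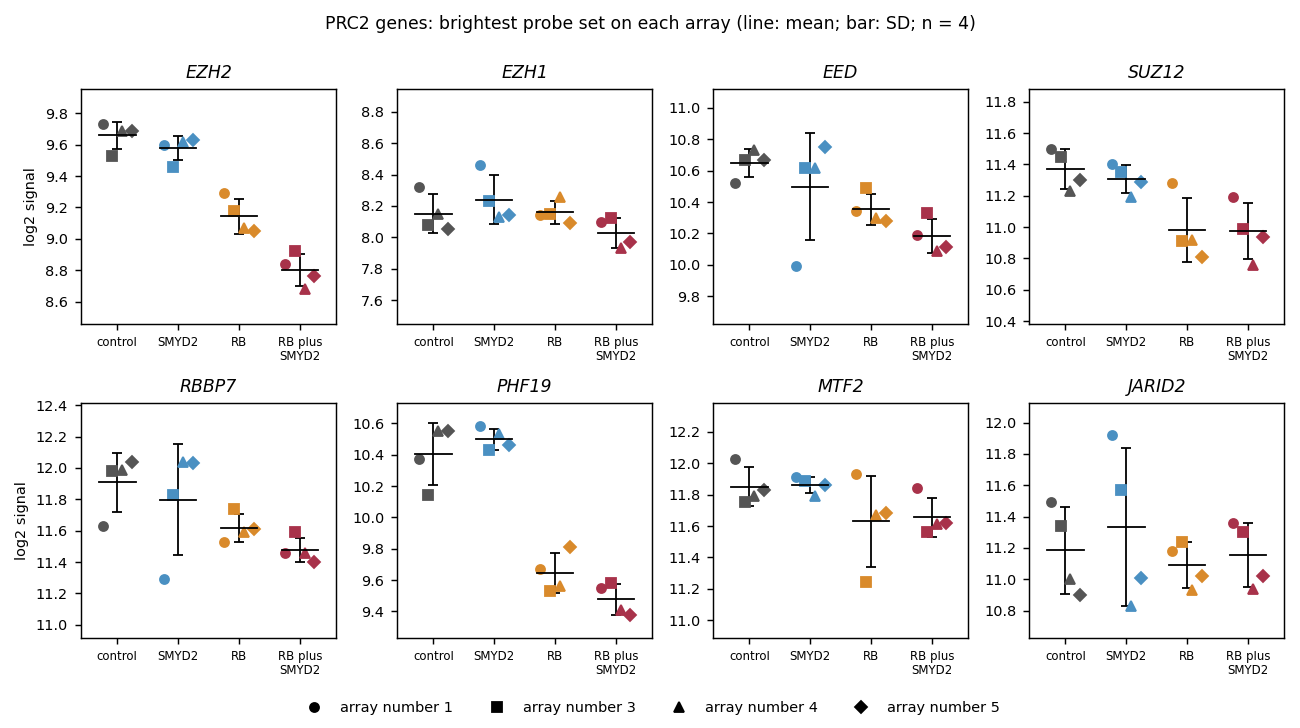
The log2 signal of the brightest probe set of each of the 8 PRC2 genes on each of the 16 arrays, by group; symbols mark the replicate number, lines the group mean and bars the SD (n = 4), and every panel spans 1.5 log2 units. EZH2 and PHF19 step down in the groups with RB, from control means of 9.66 and 10.40 to 8.80 and 9.48 with RB plus SMYD2. JARID2 shows no such step. EZH1 shows none from control to RB, but its RB plus SMYD2 arrays lie on average 0.21 below its SMYD2 arrays, without overlap.

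EZH2, the main catalytic subunit, read 9.73, 9.53, 9.69 and 9.69 on control arrays 1, 3, 4 and 5, the order kept for every gene below. With RB it read 9.29, 9.18, 9.07 and 9.05, and every RB array lay below every control array. The fall was 0.52 on the log2 scale, with an SE of 0.09 (1.43-fold; limma, adjusted p = 0.00521). SMYD2 arrays read 9.60, 9.46, 9.62 and 9.63, of which array 3 lay below the control range, and RB plus SMYD2 arrays read 8.84, 8.92, 8.68 and 8.76, below all 12 others. From SMYD2 to RB plus SMYD2 EZH2 fell by 0.78 (SE 0.09, 1.71-fold; limma, adjusted p = 3.45e-05), and from control to RB plus SMYD2 by 0.86 (1.81-fold; adjusted p = 1.24e-05). The order of the group means was therefore control, SMYD2, RB and RB plus SMYD2, and control and SMYD2 overlapped.

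The step from RB to RB plus SMYD2 was smaller. EZH2 was 0.34 lower with both constructs (SE 0.09, 1.27-fold), the arrays of the groups did not overlap, and all 4 same-numbered pairs were lower, by 0.26 to 0.44 on the log2 scale. The exact two-sided permutation p was 0.0286, the smallest that 4 arrays against 4 allow, and limma's unadjusted p was 0.000909, but after adjustment over all probe sets it was 1.00. In that comparison 0 of the 23 PRC2 probe sets passed and 2 had an unadjusted p under 0.05. Of all probe sets, 0.00183% were called and 3.88% had an unadjusted p under 0.05. RB1 itself read 7.70 with RB and 8.67 with RB plus SMYD2, and its part in the EZH2 step was not tested. In SMYD2 against control EZH2 differed by -0.08 (95% interval -0.26 to 0.10; limma, adjusted p = 0.998). All 4 same-numbered pairs were lower, by 0.06 to 0.12, and with the replicate number as a block the adjusted p was 0.892. No PRC2 probe set passed in SMYD2 against control with limma, 0 of 23 had an unadjusted p under 0.05, and 0.0% of all probe sets were called (3.05% had an unadjusted p under 0.05).

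Whether the fall with RB was larger in the presence of SMYD2 was asked of the interaction, that is, RB plus SMYD2 minus SMYD2, less RB minus control. For EZH2 it was -0.26 with an SE of 0.12 (limma, unadjusted p = 0.0459, adjusted p = 1.00). The second PHF19 probe set gave -0.33 with an SE of 0.13 (unadjusted p = 0.0193, adjusted p = 1.00). These were the 2 of 23 with an unadjusted p under 0.05, and 0 passed after adjustment. Of all probe sets, 2.87% had an unadjusted p under 0.05 and 0.00183% were called.

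EZH1, the alternative catalytic subunit, did not fall with EZH2 in RB against control. Its brightest probe set read 8.32, 8.08, 8.15 and 8.05 in control, 8.14, 8.15, 8.26 and 8.09 with RB, 8.46, 8.23, 8.13 and 8.14 with SMYD2, and 8.10, 8.12, 7.93 and 7.97 with RB plus SMYD2. The arrays of control, RB and SMYD2 overlap throughout. RB against control differed by 0.01, with a 95% interval of -0.19 to 0.21 (limma, adjusted p = 0.991), an interval that does not reach the fall of EZH2. In RB plus SMYD2 against SMYD2 it differed by -0.21 and the arrays did not overlap (exact permutation p = 0.0286), but it did not pass across all probe sets (limma, adjusted p = 0.315). The other 4 EZH1 probe sets were dimmer, with group means from 4.54 to 7.63, and their differences in RB against control lay between -0.05 and -0.02. RMA signals carry no detection call, so the dimmest of these were not separated from background.

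Measured within each array, EZH2 changed by more than EZH1. EZH2 minus EZH1 stood at 1.51 ± 0.11 (SD, n = 4) in control, and SMYD2 cells gave 1.34 ± 0.18. With RB it was 0.99 ± 0.14, and with both constructs 0.77 ± 0.03. The drop was 0.52 in RB against control, 0.57 in RB plus SMYD2 against SMYD2 and 0.21 in RB plus SMYD2 against RB, each without overlap of the arrays. Each had an exact two-sided permutation p of 0.0286, or 0.0429 when adjusted over the 15 differences tested. This shows unequal change of the 2 paralogs and not that either was constant.

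The core partners EED and SUZ12 were compared with EZH2 in the same way. From SMYD2 to RB plus SMYD2, EZH2 dropped by 0.46 relative to EED and by 0.44 relative to SUZ12 (exact permutation p = 0.0286, adjusted 0.0429, for both). Without SMYD2 array 1, the array with the highest ACTB ratio, the drop relative to EED was 0.28, and 4 arrays against 3 allow no exact permutation p below 0.0571. RB plus SMYD2 against control and against RB gave the same p for both partners, with drops of 0.39 and 0.17 relative to EED and 0.46 and 0.33 relative to SUZ12. In RB against control the differences did not pass: -0.22 for EED (exact permutation p = 0.0571, adjusted 0.0779) and -0.13 for SUZ12 (exact permutation p = 0.286, adjusted 0.330). With the mean of all probe sets of each gene in place of the brightest, these 2 were -0.35 and -0.31, each with an exact permutation p of 0.0286. That mean takes in further partner probe sets, such as the dimmest of SUZ12 (mean 3.85 in control, difference 0.03 in RB against control), while EZH2 has 1, so it does not compare like with like. In SMYD2 against control none of the 3 differences passed. Altogether 10 of the 15 had an adjusted p under 0.05. Each of the 10 had the exact permutation p of 0.0286, the smallest possible, so its adjusted p depends on how many others tie there. The 15 differences share the EZH2 probe set and arrays and are not independent. They were adjusted over these 15 only and not over all probe sets.

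**Figure D3:**
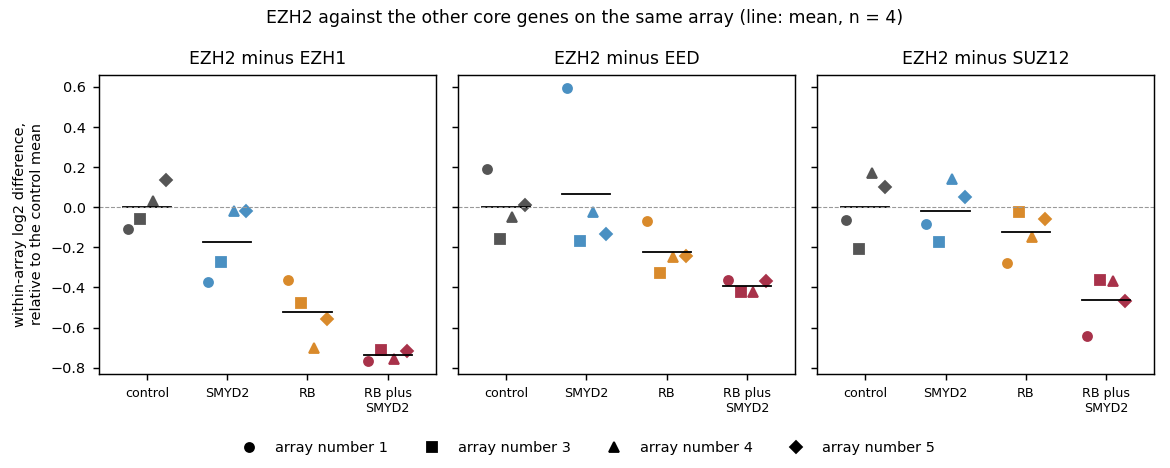
The log2 signal of EZH2 minus that of EZH1, EED or SUZ12 on the same array, relative to the control mean (dashed line at 0), by group; symbols mark the replicate number and lines the group mean (n = 4). All RB plus SMYD2 arrays lie below all control arrays in the 3 panels, whereas RB overlaps control for EED and SUZ12.

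EED, which binds the methyl mark that PRC2 makes and stimulates the enzyme, read 10.52, 10.67, 10.73 and 10.67 in control and 10.34, 10.49, 10.30 and 10.28 with RB. The RB arrays all lay below control, but the difference of -0.29 (SE 0.13) did not pass across all probe sets (limma, adjusted p = 0.428). With SMYD2 it read 9.99, 10.62, 10.62 and 10.75, so array 1 stood well below the other 3. With RB plus SMYD2 it read 10.19, 10.33, 10.09 and 10.11. The difference between RB plus SMYD2 and SMYD2 was -0.32 (adjusted p = 0.233), and without SMYD2 array 1, the array with the highest ACTB ratio, it gave -0.48 (limma, adjusted p = 0.00162). RB plus SMYD2 against control gave -0.46 with an adjusted p of 0.0530, which became 0.0154 with the replicate number as a block, 0.000954 without SMYD2 array 1 and 0.0425 without SMYD2 array 5. The second EED probe set was dim, with group means from 4.08 to 4.14, and showed differences of -0.04 and -0.05 in RB against control and in RB plus SMYD2 against SMYD2.

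SUZ12, the scaffold of the complex, read 11.50, 11.45, 11.23 and 11.30 in control and 11.28, 10.91, 10.92 and 10.81 with RB. The replicates 3, 4 and 5 of RB lay below all control arrays, and RB array 1 lay among them. With SMYD2 it read 11.40, 11.35, 11.19 and 11.29, and with RB plus SMYD2 11.19, 10.99, 10.76 and 10.94. RB against control gave -0.39 (SE 0.11, 1.31-fold; limma, adjusted p = 0.0989), which passed with the replicate number as a block (adjusted p = 0.00398) and without RB array 1 (-0.49, adjusted p = 0.0249). Between RB plus SMYD2 and SMYD2 it was -0.33 (adjusted p = 0.108, or 0.00538 with the block). RB plus SMYD2 against control gave a fall of 0.40 that passed (SE 0.11, 1.32-fold; limma, adjusted p = 0.0470). That call was lost in 12 of the 16 fits that left out 1 array, with adjusted p up to 0.185. It was kept only without array 1 of SMYD2, RB or RB plus SMYD2, or array 5 of RB. The 2 other SUZ12 probe sets were dim, with group means from 3.80 to 4.51, and did not pass.

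RBBP7, a histone-binding subunit shared with other chromatin complexes, read 11.63, 11.98, 11.99 and 12.04 in control and 11.53, 11.74, 11.59 and 11.61 with RB. It read 11.29, 11.83, 12.04 and 12.03 with SMYD2 and 11.46, 11.59, 11.46 and 11.40 with RB plus SMYD2. Array 1 was the lowest in control and in SMYD2, as it was for EED. Those are the 2 arrays with the highest ACTB ratios. Their GAPDH ratios were 0.06 and 0.16 on the log2 scale, and the part of RNA quality in this was not tested. RB against control gave -0.29 (SE 0.13; limma, adjusted p = 0.472). Between RB plus SMYD2 and SMYD2 it was -0.32 (adjusted p = 0.256), and without SMYD2 array 1 -0.49 (adjusted p = 0.00417). RB plus SMYD2 against control gave -0.43 (adjusted p = 0.0983), which passed with the block (0.0151), without SMYD2 array 1 (0.00504) and without control array 1 (-0.53, adjusted p = 0.0421).

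PHF19, a Polycomb-like subunit that binds methylated histone H3 through its Tudor domain, had the largest fall of the 8 members by brightest probe set in RB against control and in RB plus SMYD2 against SMYD2 or control. Its brightest probe set read 10.37, 10.14, 10.55 and 10.55 in control and 9.67, 9.53, 9.56 and 9.81 with RB. With SMYD2 it read 10.58, 10.43, 10.53 and 10.46, overlapping control, and with RB plus SMYD2 9.55, 9.58, 9.41 and 9.38. No array with RB reached the level of any array without it. PHF19 fell by 0.76 in RB against control (SE 0.10, 1.69-fold; limma, adjusted p = 0.00101), by 1.02 in RB plus SMYD2 against SMYD2 (2.03-fold; adjusted p = 1.11e-05) and by 0.93 in RB plus SMYD2 against control (1.90-fold; adjusted p = 2.42e-05).

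The other PHF19 probe sets moved alike. The second read 10.03, 9.75, 10.12 and 10.03 in control, 9.33, 9.29, 9.14 and 9.20 with RB, 10.06, 9.95, 9.96 and 10.07 with SMYD2 and 8.97, 9.06, 8.90 and 8.85 with RB plus SMYD2. It fell by 0.74, 1.07 and 1.04 in the same 3 comparisons (limma, adjusted p = 0.000799, 4.39e-06 and 4.89e-06). Its RB plus SMYD2 arrays lay 0.30 below those with RB and did not overlap them (exact permutation p = 0.0286; limma, adjusted p = 1.00), whereas the brightest probe set gave -0.17 there and its arrays overlapped. The third fell by 0.50, 0.77 and 0.73 (limma, adjusted p = 0.0333, 0.000486 and 0.000700). Its call in RB against control was lost in 7 of the 16 fits that left out 1 array, each of the 4 control arrays and RB arrays 3, 4 and 5, with adjusted p up to 0.133.

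MTF2, the related Polycomb-like subunit, did not pass with any of its 5 probe sets. The brightest read 12.03, 11.75, 11.79 and 11.83 in control, 11.93, 11.24, 11.67 and 11.68 with RB, 11.91, 11.89, 11.79 and 11.86 with SMYD2 and 11.84, 11.56, 11.61 and 11.62 with RB plus SMYD2. RB array 3 was the lowest of all 16. RB against control gave -0.22 (95% interval -0.46 to 0.02; limma, adjusted p = 0.553) and RB plus SMYD2 against SMYD2 -0.21 (adjusted p = 0.436). The first value was -0.09 without RB array 3, and it ranged from -0.32 to -0.09 when each array was left out in turn. The probe set nearest to passing gave -0.35 in RB plus SMYD2 against control (limma, adjusted p = 0.0775, or 0.0289 with the replicate block).

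JARID2 is a relative of the histone demethylases that binds DNA and RNA in place of the Polycomb-like subunits. Its 2 brighter probe sets differed between replicate numbers, and no difference between groups passed. In the brightest, the arrays numbered 1 and 3 read 11.18 to 11.92 and those numbered 4 and 5 read 10.83 to 11.02, over all 4 groups. The second read 10.38 to 10.69 and 10.15 to 10.29. The dimmest overlapped, at 5.30 to 6.06 and 5.28 to 5.90. The labels do not say what the number stands for. RB against control gave -0.09 (95% interval -0.50 to 0.32; limma, adjusted p = 0.945) and RB plus SMYD2 against SMYD2 gave -0.18 (95% interval -0.59 to 0.23; adjusted p = 0.750). The second value was 0.02 without SMYD2 array 1 and ranged from -0.35 to 0.02 when each array was left out in turn. These intervals are wide, and the 2 other JARID2 probe sets did not pass either.

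**Figure D4:**
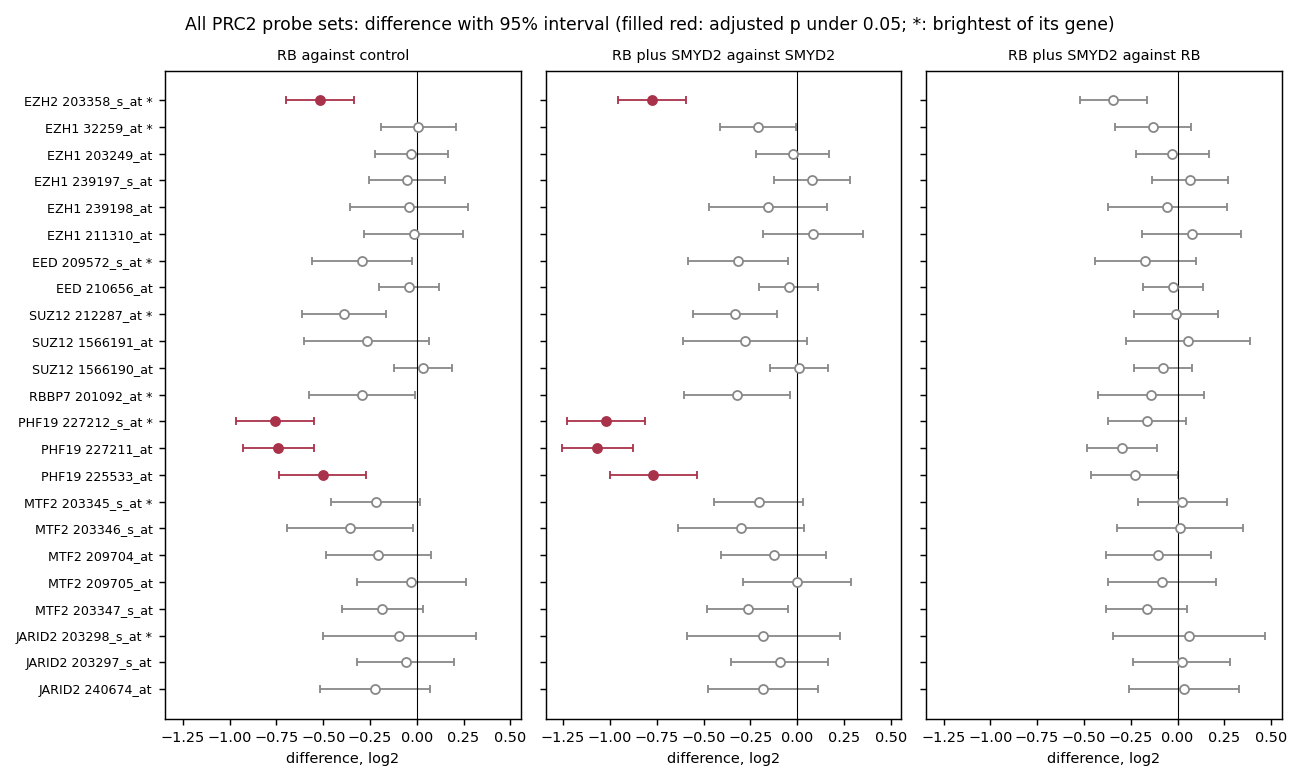
Log2 differences with 95% intervals from the limma fit for all 23 PRC2 probe sets in RB against control, RB plus SMYD2 against SMYD2 and RB plus SMYD2 against RB; filled red symbols have an adjusted p under 0.05, and an asterisk marks the brightest probe set of a gene. In the first 2 panels the filled symbols are EZH2 and the 3 PHF19 probe sets, and in the third panel there are none.

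No PRC2 gene outside the 8 members passed, but few of all genes did. The 8 further genes were the subunits RBBP4, AEBP2, PHF1, EPOP, LCOR, LCORL and SKIDA1 and the PRC2 inhibitor EZHIP. Of these, 0 fell and 0 rose in RB against control and in RB plus SMYD2 against SMYD2 and against control. Their medians were -0.09, -0.06 and -0.18. Of all genes, 1.27%, 3.49% and 3.43% fell in these comparisons and 0.617%, 1.96% and 2.14% rose. A count of 0 of 8 therefore does not set these genes apart. In RB against control their differences ran from -0.12 for AEBP2 to 0.08 for SKIDA1. PHF1, the remaining Polycomb-like gene, gave -0.11 and -0.13 in RB against control and in RB plus SMYD2 against SMYD2. RBBP4, the near twin of RBBP7, gave -0.10 and 0.04.

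PRC1, the complex that reads the PRC2 mark and ubiquitinates histone H2A, showed a single fall in RB against control among 21 of 25 listed genes measured, beside 1.27% of all genes. CBX2, a chromodomain subunit that recognises the mark, fell by 0.51 (SE 0.12; limma, adjusted p = 0.0460) and then by 0.70 in RB plus SMYD2 against SMYD2 (adjusted p = 0.00206). PCGF6, MGA and PCGF2 gave -0.27, -0.22 and -0.17 in RB against control and did not pass. The median of the 21 was -0.08 in both comparisons, and 2 of the 21 fell in the second, CBX2 and SCML2 (-0.35, adjusted p = 0.0250; named after its value was seen), beside 3.49% of all genes. Among 18 of 20 enzymes and cofactors that oppose Polycomb silencing, 1 fell in RB against control, again beside 1.27% of all genes. It was NSD2, which methylates another lysine of histone H3, at 0.64 lower (SE 0.09; limma, adjusted p = 0.00121) and 0.92 lower in RB plus SMYD2 against SMYD2 (adjusted p = 9.52e-06). KMT2A, KMT2D and WDR5 gave -0.38, -0.25 and -0.22 in RB against control and did not pass. WDR5 fell by 0.46 in RB plus SMYD2 against SMYD2 (adjusted p = 0.00335). In RB plus SMYD2 against control 3 of the 18 fell, beside 3.43% of all genes: NSD2, WDR5 and KMT2A, the last by 0.49 (limma, adjusted p = 0.0440).

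Among genes that PRC2 silences in many tissues, few passed, as did few of all genes. Of 28 of 39 HOX genes measured, 0 rose and 0 fell in RB against control, with a median of -0.05. Of all genes, 0.617% rose and 1.27% fell there. HOXC6, HOXD11, HOXB8 and HOXD1 had the largest differences, -0.36, -0.32, 0.30 and 0.22, and none passed. With SMYD2 present, comparing RB plus SMYD2 with SMYD2, 0 HOX genes rose and HOXC6 fell by 0.42 (limma, adjusted p = 0.0126). That is 3.6% of the HOX genes measured, beside 3.49% of all genes that fell. Of 21 of 23 other textbook Polycomb targets, 1 rose in RB against control, beside 0.617% of all genes. It was CDKN2B, which encodes the cyclin-dependent kinase inhibitor p15, higher by 0.85 (SE 0.19; limma, adjusted p = 0.0318). FOXA2, LHX2 and PAX2 gave -0.58, -0.53 and -0.30 and did not pass. CDKN2B was also 1.17 higher in RB plus SMYD2 against SMYD2 (adjusted p = 0.00111), where 1.96% of all genes rose, and 1.07 higher in RB plus SMYD2 against control (adjusted p = 0.00236), where 2.14% rose. LHX2 fell by 0.86 in RB plus SMYD2 against SMYD2 (limma, adjusted p = 0.000543), where 3.49% of all genes fell. Histone marks were not measured.

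Cell cycle genes moved with EZH2 and PHF19, and their part in the fall of these 2 was not tested. Of 29 of 30 G1/S genes measured, 17 fell and 0 rose in RB against control, with a median of -0.53, beside 1.27% of all genes that fell. In RB plus SMYD2 against SMYD2 26 fell, with a median of -0.73, beside 3.49% of all genes. CHAF1A, TK1, MCM7 and GINS2, which serve DNA replication and chromatin assembly, fell by 0.71, 0.68, 0.65 and 0.64 in RB against control (limma, adjusted p = 0.00674, 0.0226, 0.00121 and 0.00134). Of 25 G2/M genes, 17 fell and 0 rose in RB against control, with a median of -0.71, again beside 1.27% of all genes that fell. The 2 mitotic genes KIF23 and MKI67 fell by 0.78 and 0.77 (limma, adjusted p = 0.0404 and 0.0109). CENPE and TOP2A gave -0.89 and -0.78 and did not pass. The difference of EZH2 in RB against control, -0.52, lay beside the G1/S median, and that of PHF19, -0.76, beside the G2/M median. Of 8 osteoblast markers, 2 rose in RB against control, beside 0.617% of all genes, and 0 of the 8 differences were negative. SPARC and SPP1 rose by 0.81 and 0.83 (limma, adjusted p = 0.0200 and 0.0158). COL1A2 and IBSP gave 0.94 and 0.30 and did not pass, and RUNX2 had means of 12.38 in control and 12.44 with RB. In RB plus SMYD2 against SMYD2 and against control 1 of the 8 rose, beside 1.96% and 2.14% of all genes. The mean of the 8 markers spanned 10.78 to 11.32 on control arrays and 11.22 to 11.59 on RB arrays.

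**Figure D5:**
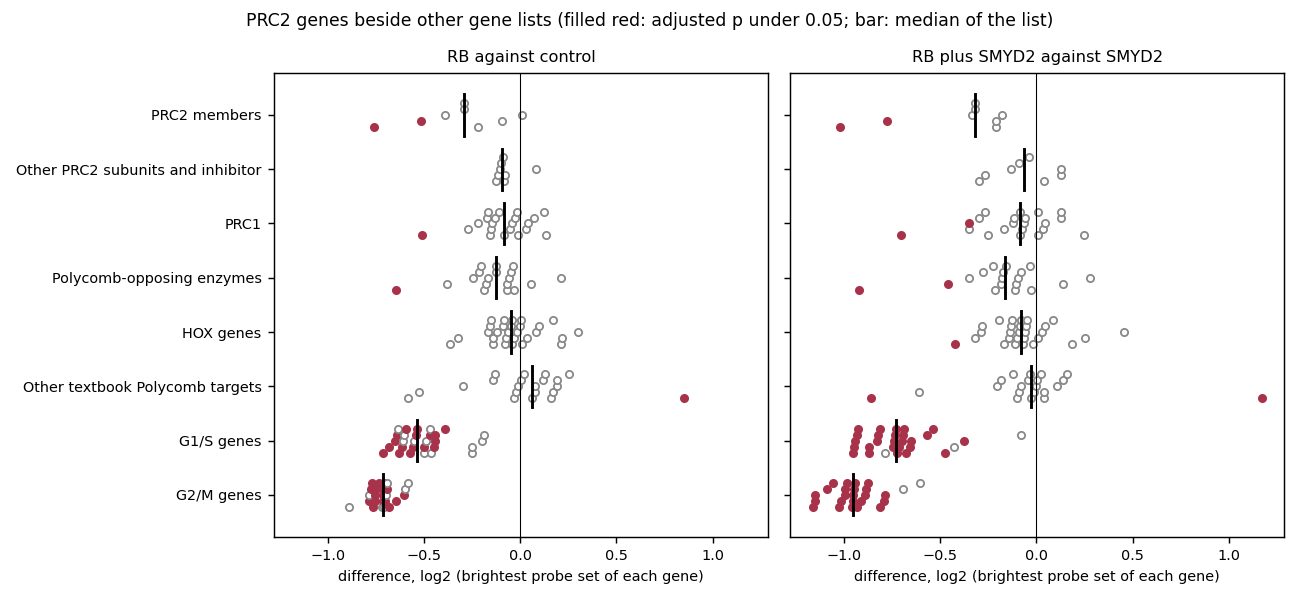
Log2 differences of the brightest probe set of each gene for the PRC2 members and 7 other gene lists in RB against control and RB plus SMYD2 against SMYD2; each point is a gene, filled red where the adjusted p was under 0.05, and the black bar is the median of the list. The PRC2 members spread down to the level of the G1/S and G2/M genes, from near 0 in RB against control and from -0.18 in RB plus SMYD2 against SMYD2. The other Polycomb lists have medians between -0.16 and 0.06.

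The genes whose 16 array values lay closest to those of EZH2, after centring each gene on its own mean, were GTSE1, DCLRE1B, CEP72, MCM3 and TIMELESS of 19774 genes ranked. Their root-mean-square differences from EZH2 were 0.08 to 0.10 on the log2 scale, beside 0.36 for the variation of EZH2 around its own mean. The arrays of all these genes share labelling and scaling, so this is a description. The nearest fellow member was PHF19 at rank 245, followed by SUZ12 at 484, EED at 795, RBBP7 at 1089, MTF2 at 1670 and EZH1 at 2069, with JARID2 at 13024. Their differences from EZH2 were 0.18 for PHF19, 0.31 for EZH1 and 0.41 for JARID2. A gene that did not vary at all would stand at 0.36, so these ranks do not make EZH1 much like EZH2. For EZH1, which varied by 0.13 around its mean, the closest were SEC11A, EMD, PSMD9, UXT and EPC1, at 0.06 to 0.07, and EZH2 stood at rank 17534.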

How the data were processed

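RNA of 16 SAOS samples was hybridised to 1 array each. The deposited values are log2 signals per probe set, made by the authors with RMA (background correction, quantile normalization and probe summary), per the submitters' processing notes; no version is given. The sources used here do not say whether the arrays were normalized as 1 set. Gene names came from the platform annotation: 41091 probe sets carried 1 symbol, 1801 several and 11721 none. Array control probe sets were left out. Arrays of 1 group correlated at 0.981 to 0.998 with at most 0.0751% identical values, so none was treated as a copy. The number of arrays limits the precision.

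Differences were fitted with limma 3.58.1 in R 4.3.3 on all 54613 probe sets and 16 arrays, with 1 mean per group and eBayes with a trend, and p-values, two-sided, were adjusted by Benjamini-Hochberg over all probe sets of a comparison and held against 0.05. Exact permutation tests over arrays used scipy 1.17.1. The brightest probe set is that with the highest mean over all arrays. Same-numbered arrays deviated together from their group means in every comparison (lowest correlation 0.13), a pairing taken from the labels' numbers and these data, so fits with the number as a block stand beside results they change. The fit was checked on simulated data. Named genes were all members, all further PRC2 subunits and the inhibitor EZHIP. So were the 4 genes of each list with the largest absolute difference in RB against control. The 5 genes most like EZH2 and EZH1 were named as well. The members and lists were chosen with earlier results of these data known. Figures used matplotlib 3.10.9.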

Additional observations from a re-analysis of the deposited data

Results flagged for a closer look

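In 7 of 92 groups of 4 arrays, 1 array stood apart from the other 3 by Dixon's criterion, and chance gives about 1 in 20. RBBP7 read 11.63 on control array 1, against 11.98 to 12.04 on the others. The third PHF19 probe set read 9.21 on control array 1, against 9.03 to 9.05. An MTF2 probe set read 11.11 on SMYD2 array 1, against 10.60 to 10.66, and another read 9.22 on RB plus SMYD2 array 3, against 9.42 to 9.44. For EZH1, 1 probe set read 7.52 on RB array 1, against 7.62 to 7.64, and another read 4.55 on RB plus SMYD2 array 3, against 4.79 to 4.82. A dim SUZ12 probe set read 3.92 on control array 3, against 3.82 to 3.84.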

How the results depend on the processing

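EZH2 and the 2 brighter PHF19 probe sets kept their calls in RB against control, in RB plus SMYD2 against SMYD2 and in RB plus SMYD2 against control under every alternative run. EZH2 ranged from -0.56 to -0.48, from -0.82 to -0.74 and from -0.90 to -0.82 in these comparisons. Of the 23 PRC2 probe sets, 4 passed in RB against control. That became 2 when only 1 probe set per gene was fitted, which leaves 8 members, and 7 with array weights, and it ranged from 3 to 5 when 1 array was left out. In RB plus SMYD2 against SMYD2, 4 became 2 with 1 probe set per gene and 7 without the 4 arrays numbered 1, an alternative chosen after seeing the data, and ranged from 4 to 6 with 1 array left out. In RB plus SMYD2 against control, 5 became 8 with array weights and ranged from 4 to 7 with 1 array left out; the cause was not tested. With the replicate number as a block the counts were 5, 5 and 8 in these comparisons and 0 in the other 3. The block changed calls only for SUZ12, EED, RBBP7 and the MTF2 probe set named above. With RMA values quantile-normalized again, SUZ12 in RB plus SMYD2 against control had an adjusted p of 0.0795. Under every alternative run, RB plus SMYD2 against RB, SMYD2 against control and the interaction gave 0. For the within-array differences, leaving out 1 array (smallest possible p 0.0571) or flipping signs within pairs (0.125) cannot pass. Dim probe sets have no detection call here.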
